A study of Mus musculus with 27 samples.

Results

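The effect of a MEK inhibitor was examined in immortalised mouse embryonic fibroblasts (iMEFs) in which Setdb1 had been deleted. The comparison is between 2 RNA-seq libraries labelled 4OHT + PD0325901 and 2 labelled 4OHT day 6, so that 4 of the 27 libraries of the series are its members. They were chosen by their treatment labels, not by any measured value, and all genes with a value were described. Both groups are Setdb1 cKO iMEFs, which carry a conditional Setdb1 allele that is deleted when 4-hydroxytamoxifen (4OHT) is added. In both groups 4OHT was withdrawn after 4 days and RNA was taken on day 6. The 4OHT + PD0325901 cells also received 1 µM PD0325901, an inhibitor of the kinases MEK1 and MEK2, for the last 24 h. Per the study's methods the cells are 1 clonal line, so the libraries of a group are repeats within a clone, and nothing says whether they are separate cultures. The p-values therefore measure only the spread between these libraries, which may be technical. Cells of the same line without 4OHT, with the inhibitor (2 libraries, PD0325901) or without it (2 libraries, untreated), were used for comparison, and 2 libraries from cells given the histone deacetylase inhibitor TSA without 4OHT entered only the estimate of the spread. The labels also spell the inhibitor PD0325091. PD0325901 replicate 2 is kept in the group its label gives, although a column header of its file carries the name of a 4OHT + PD0325901 library, and it enters the main comparison only through the spread.

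MEK1 and MEK2 phosphorylate and switch on the kinases ERK1 and ERK2, the last step of the cascade that runs from growth factor receptors through Ras and Raf. Active ERK changes transcription through Ets family factors, the serum response factor and AP-1, and it turns on its own brakes, the dual-specificity phosphatases (Dusp genes) and the Sprouty and Spred proteins. In fibroblasts the cascade drives entry into the cell cycle through cyclin D1 and is known to restrain the contractile, matrix-producing state that TGF-beta promotes. Setdb1 is a histone H3 lysine 9 methyltransferase that silences endogenous retroviruses, among them the VL30 family. The study asked whether the VL30 transcripts that appear after Setdb1 loss need signalling through MEK.

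The deposited value is the FPKM, the fragments per kilobase of transcript, scaled to the mapped fragments of the library. Depth, estimated from the confidence interval bounds of single-exon genes, was 10.7 to 12.4 M fragments per library over the 10 libraries of the inhibitor experiment. Of 21524 genes with a value, the 11309 with 1 FPKM or more in no fewer than 2 libraries entered the test. The Setdb1 gene (mm9 chr3:95127447-95161124) was listed at 8.76 and 10.1 FPKM in the untreated libraries and at 5.34 and 5.56 with the inhibitor alone. It was listed at 0 and 5.3 in the 4OHT day 6 libraries and at 0 in both 4OHT + PD0325901 libraries. A gene-level FPKM does not show the loss of single exons and a 0 may not be a measured absence. These values therefore do not settle the deletion in any library. Of 9 fibroblast markers, 8 had a value, and the lowest value of these 8 in the 4 libraries was 4.94 FPKM. Of 15 haematopoietic, epithelial and endothelial markers, Cd68 alone reached 1 FPKM in all 4 libraries. The summed FPKM was 4.24 to 14.34 for the haematopoietic, 0.46 to 2.91 for the epithelial and 0.09 to 0.56 for the endothelial markers. In bulk RNA, fewer cells of a type and less RNA per cell cannot be told apart.

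In the Setdb1-deleted cells, feedback genes of ERK (10 of 17 tested) and some of its output genes (6 of 22) fell with PD0325901, while 9 of 20 collagen genes and 6 of 25 contractile and TGF-beta response genes rose. A gene was called when its adjusted p was under 0.05 (limma on log2(FPKM + 0.1), Benjamini-Hochberg over all genes tested) and its fold change was at least 2. Fold changes are on this scale, which understates those of low genes. By this rule 270 genes were higher (2.39% of those tested) and 157 were lower (1.39%). With no fold limit, 490 (4.33%) and 300 (2.65%) passed the adjusted p. The fold change was 4 or more for 89 of the higher and 52 of the lower genes, and 13 called genes in each direction were listed at 0 in at least 1 of the 4 libraries. The log2 fold change had a median of 0.04 over all genes tested. Both inhibitor libraries were above both others for 27.4% of genes and below them for 19.9%. When only the 4 libraries compared were fitted, 63 genes were called higher and 39 lower. Without 4OHT + PD0325901 replicate 1 the counts were 169 and 104.

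The same question was asked of cells without 4OHT, a comparison that shares no library with the one above. There, 349 genes were higher (3.09%) and 471 were lower (4.16%). Of the 270 genes called higher in deleted cells, 135 were also called higher in undeleted cells, which is 50% of the first list and 38.7% of the second. Of the 157 called lower, 82 were also called lower, 52.2% of the first list and 17.4% of the second. The calls of both comparisons use the same estimate of each gene's spread, so the shared calls are not independent of each other. The sign of the change was shared by 234 of the 270 and 140 of the 157 genes. Across all genes tested, the log2 fold changes of both comparisons had a Pearson correlation of 0.377 and a Spearman correlation of 0.42, given as a description, since genes are not independent and all libraries come from 1 line. Maf, Fzd1, Podn and Gps2 were called in opposite directions. Gps2 was listed at 0 in both 4OHT day 6 and both PD0325901 libraries, so both of its calls rest on values of 0.

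**Figure D1:**
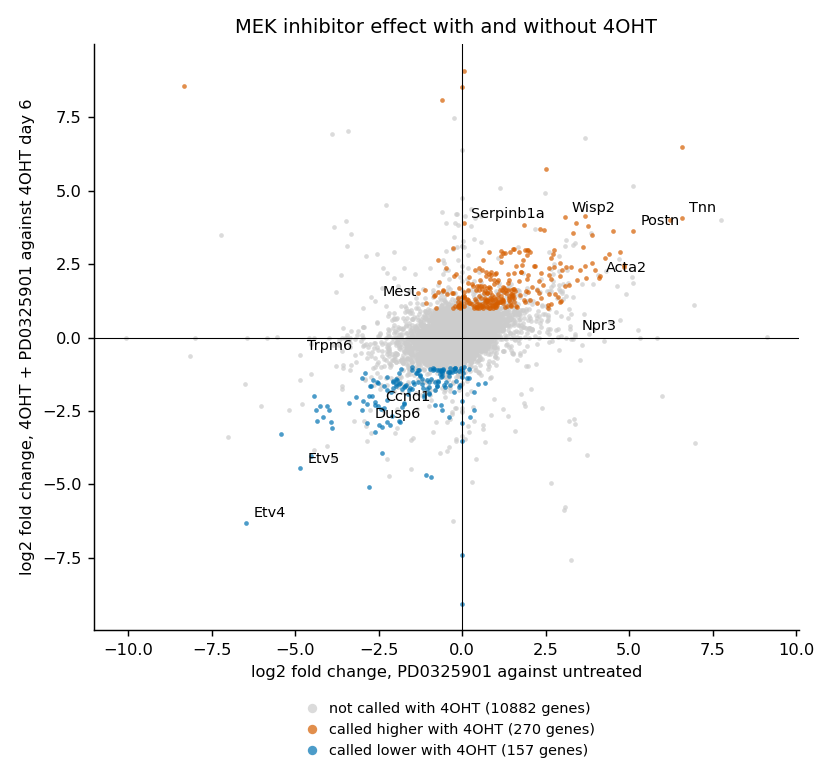
Each point is 1 of the 11309 genes tested, with the log2 fold change of PD0325901 against untreated on the horizontal axis and of 4OHT + PD0325901 against 4OHT day 6 on the vertical axis; colours mark the 270 genes called higher and the 157 called lower in cells with 4OHT. Etv4 lies at -6.46 and -6.31, Postn at 5.12 and 3.64, Serpinb1a at 0.05 and 3.89, and Npr3 at 3.38 and 0.07.

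Most of the tested brakes of the ERK pathway fell. Of 18 feedback genes listed, 17 were tested, 10 were called lower and 0 higher, with a median log2 fold change of -1.29 against 0.04 over all genes. Dusp6 (mm9 chr10:98725865-98730123), the phosphatase that acts on ERK in the cytoplasm, stood at 48.6 and 44.7 FPKM in the 4OHT day 6 libraries and at 5.43 and 6.81 with the inhibitor. Its log2 fold change was -2.92 ± 0.38 (SE, adjusted p = 0.00596). Errfi1, an inhibitor of the EGF receptor, had 33.5 and 42.2 FPKM against 4.36 and 6.25 (-2.82 ± 0.18, adjusted p = 0.000294). The groups did not overlap for any of the 10 genes called. Dusp5, a nuclear ERK phosphatase, had 35.6 and 31.1 FPKM against 5.04 and 5.34 (-2.66). Dusp4, another nuclear phosphatase, had 2.6 and 3.23 FPKM against 0.415 and 0.247 (-2.83). Spry4, an inhibitor of the path from receptor to Raf, had 2.8 and 4.43 FPKM against 0.194 and 0.376 (-3.28), the lowest fold change of the list. Spred2, which recruits a brake to Ras, had 13.7 and 15.6 FPKM against 2.31 and 3.71 (-2.28). The other members called were Spry2 (-1.75), Spred3 (-1.69), Lrig1 (-1.29), which lowers receptor levels, and Spred1 (-1.11). Rasa2, a GTPase activator that turns Ras off, passed the adjusted p but not the fold limit (-0.93, adjusted p = 0.0424), and 6 members passed neither. When limma was fitted to only the 4 libraries compared, a fit with fewer samples, several members lost their call. The adjusted p was then 0.0608 for Spry4, 0.062 for Dusp4, 0.0511 for Spred2 and 0.101 for Lrig1. For Spry2 it was 0.0703, for Spred3 0.156 and for Spred1 0.107. With a pseudocount of 1, Spred3 was just under the fold limit (-0.9998). Calls of 3 genes also depended on single libraries. The adjusted p of Spry2 was 0.126 without 4OHT + PD0325901 replicate 1. Without 4OHT day 6 replicate 2, the adjusted p of Spred3 was 0.0639 and the log2 fold change of Spred1 was -0.98. In undeleted cells the same list had a median of -1.48, and 0 members passed the test of a difference between the settings (the interaction).

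Among the outputs of the pathway, the Ets factors of the PEA3 group, Etv4 and Etv5, had the lowest fold changes. Etv4 (mm9 chr11:101631062-101646624) stood at 31.7 and 26.1 FPKM in the 4OHT day 6 libraries and at 0.269 and 0.26 with the inhibitor. That is a log2 fold change of -6.31 ± 0.24 (SE, adjusted p = 1.14e-05), the lowest among called genes above 0 in all 4 libraries, and the mean level was 109-fold lower. Etv5 had 8.22 and 9.8 FPKM against 0.255 and 0.39 (-4.44 ± 0.38, adjusted p = 0.00108). Etv1, the other member of the group, was low in all 4 libraries, at 0.524 and 0.332 FPKM against 0 and 0.0219 (-2.23). It passed the filter on low values through libraries outside this comparison. With a pseudocount of 1 its log2 fold change was -0.495, under the fold limit. Of the 24 output genes listed, 22 were tested, 6 were called lower and 1 higher, with a median of -0.86. Hmga2, a chromatin protein of growing cells, had 150.1 and 116 FPKM against 10.7 and 18.8 (-3.21 ± 0.31, adjusted p = 0.00172). Ccnd1, which encodes cyclin D1, had 84.2 and 61.5 FPKM against 14.8 and 13.6 (-2.34 ± 0.34, adjusted p = 0.00859). Phlda1 had 66.6 and 38.5 FPKM against 16.9 and 15.7 (-1.63). All of these lay far below the 4OHT day 6 libraries. Fosl1, an AP-1 subunit that follows ERK activity, had 20.0 and 17.5 FPKM against 3.69 and 3.69, groups that did not overlap, yet its adjusted p was 0.387. Its TSA libraries, at 4.61 and 0 FPKM, widen the spread, and without them the adjusted p was 0.00226. The gene called higher was Plau, the urokinase plasminogen activator, with 20.4 and 15.8 FPKM against 47.8 and 44.9 (1.36 ± 0.19, adjusted p = 0.00754). Without 4OHT day 6 replicate 1, the adjusted p was 0.0501 for Ccnd1 and 0.129 for Phlda1.

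**Figure D2:**
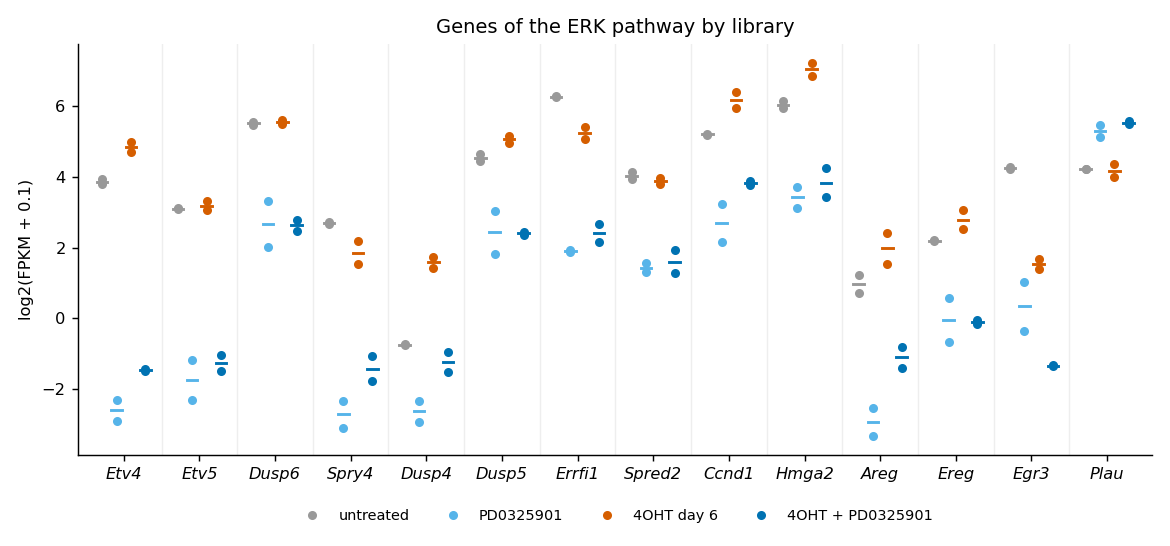
The plot gives log2(FPKM + 0.1) of 14 genes in each library of 4 groups (points, 2 a group; bars, mean of the logs). In both inhibitor groups the 13 genes from Etv4 to Egr3 sit below the libraries without inhibitor, and Plau sits above them.

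The sequences before the starts of these genes were searched for letters that ERK-regulated factors are known to bind. RefSeq gives a promoter (GRCm38.p6, 250 bases before to 50 after a gene's start) for 13 of the 18 feedback genes, 16 of the 24 output genes, 26 of the 35 immediate early genes and 17 of the 26 contractile genes. On either strand, the AP-1 site TGANTCA was in 0% of the feedback, 25% of the output and 7.69% of the immediate early genes, and in 8.97% of all 27025 genes of the table. The cyclic AMP response element TGACGTCA was in 7.69%, 6.25% and 11.5% of these lists and 2.03% of all genes. The serum response element (the CArG box bound by the serum response factor) was in 7.69%, 0% and 11.5% of these lists, 11.8% of the contractile genes and 1.81% of all genes. The Ets site CCGGAAG was in 0%, 6.25% and 11.5% of these lists and 9.93% of all genes. These shares rest on few genes. In the order given, the cyclic AMP response element was in 1, 1 and 3 genes. The serum response element was in 1, 0 and 3, the AP-1 site in 0, 4 and 2 and the Ets site in 0, 1 and 3. Of the contractile genes, 2 held a serum response element and 0 a cyclic AMP response element. A stretch that matches TGACGTCA does not also match TGANTCA. The 250 bases before the start are shown, 5′ to 3′, for 4 genes that fell and hold a match and for Myl9, a contractile gene that rose and holds a serum response element. Capitals mark the matches. Errfi1 and Emp1 each have another listed start, with the bases before it at chr4:150853546-150853795 and chr6:135367243-135367492. Those stretches hold no match and are not shown. All 5 genes lie on the plus strand, Dusp5 at chr19:53528895-53529144, Errfi1 at chr4:150854820-150855069, Areg at chr5:91139349-91139598, Emp1 at chr6:135362681-135362930 and Myl9 at chr2:156775214-156775463.
Dusp5: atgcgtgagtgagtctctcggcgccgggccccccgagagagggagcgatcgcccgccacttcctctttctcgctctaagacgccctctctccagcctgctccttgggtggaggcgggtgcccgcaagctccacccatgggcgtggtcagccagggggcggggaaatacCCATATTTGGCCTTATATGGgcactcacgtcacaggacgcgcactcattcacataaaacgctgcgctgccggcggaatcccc
Errfi1: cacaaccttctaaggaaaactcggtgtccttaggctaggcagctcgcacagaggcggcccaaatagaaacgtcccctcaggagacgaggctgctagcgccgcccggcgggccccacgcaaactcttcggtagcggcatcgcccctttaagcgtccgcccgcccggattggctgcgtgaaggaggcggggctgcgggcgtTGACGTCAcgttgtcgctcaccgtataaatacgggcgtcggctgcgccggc
Areg: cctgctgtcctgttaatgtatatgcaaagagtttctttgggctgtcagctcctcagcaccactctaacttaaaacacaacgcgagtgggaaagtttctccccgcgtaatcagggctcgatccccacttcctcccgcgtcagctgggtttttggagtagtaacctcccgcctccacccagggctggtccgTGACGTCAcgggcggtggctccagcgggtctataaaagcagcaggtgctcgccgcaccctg
Emp1: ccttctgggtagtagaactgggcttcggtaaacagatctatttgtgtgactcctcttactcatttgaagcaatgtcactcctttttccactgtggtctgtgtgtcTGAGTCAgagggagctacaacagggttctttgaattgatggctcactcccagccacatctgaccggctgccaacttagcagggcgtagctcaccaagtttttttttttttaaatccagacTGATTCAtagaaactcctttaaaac
Myl9: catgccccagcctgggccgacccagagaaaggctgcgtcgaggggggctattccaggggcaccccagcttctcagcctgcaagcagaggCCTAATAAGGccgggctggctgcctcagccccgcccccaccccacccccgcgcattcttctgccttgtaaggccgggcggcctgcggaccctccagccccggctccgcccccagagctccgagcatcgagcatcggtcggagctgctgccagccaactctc
Dusp5 holds 2 serum response elements, beginning 82 and 72 bases before the start, and Myl9 holds 1 beginning 161 bases before it. Errfi1 and Areg each hold a cyclic AMP response element, beginning 51 and 61 bases before the start shown. Emp1 holds AP-1 sites beginning 145 and 25 bases before the start shown. Emp1, a membrane protein of the output list, had 176 and 158 FPKM against 93.6 and 104 (-0.75, adjusted p = 0.0112), under the fold limit. A match is a stretch of letters and not a measured site, and the serum response element was found in Dusp5, which fell, and in Myl9, which rose.

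The immediate early genes did not move together. Of 35 listed, 32 were tested, 2 were called lower and 2 higher, and the median was 0.2, but -0.07 without 4OHT + PD0325901 replicate 2. Egr3, a zinc finger factor, had 2.54 and 3.08 FPKM against 0.296 and 0.299 (-2.87 ± 0.42, adjusted p = 0.00928). Arc, best known from neurons, had 3.16 and 7.63 FPKM against 0.745 and 1.07 (-2.33, adjusted p = 0.0155), and the adjusted p was 0.0831 without 4OHT + PD0325901 replicate 1. Both genes stood higher in untreated cells, with 18.8 and 19.4 FPKM for Egr3 and 17.4 and 18.8 for Arc. Klf4, a zinc finger factor, had 8.1 and 10.3 FPKM against 20.6 and 27.1 (1.36, adjusted p = 0.00458). Gadd45b, a stress-induced regulator of p38 signalling, had 28.3 and 38.6 FPKM against 115 and 90.8 (1.63, adjusted p = 0.0101), and its adjusted p was 0.06 without 4OHT + PD0325901 replicate 1. Klf2 passed the adjusted p alone, with 32.6 and 33.8 FPKM against 58.9 and 68.8 (0.94, adjusted p = 0.0154). Among 14 AP-1 and Maf genes tested of 18, Maf was the gene called, with 5.26 and 6.07 FPKM against 16 and 19.7 (1.63 ± 0.20, adjusted p = 0.00488). In cells without 4OHT, Maf went the other way, from 40.8 and 42.1 FPKM to 16.8 and 21.7 (-1.11), and the interaction was 2.75 (adjusted p = 0.00862). All 4 inhibitor libraries thus held similar Maf levels, between the untreated libraries above and the 4OHT day 6 libraries below. Jund, an AP-1 subunit, passed the adjusted p alone (0.85).

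Of 22 Ets and Elk family genes, 13 were tested, and the 3 called lower were Etv1, Etv4 and Etv5. Elk3, a partner of the serum response factor, had 26.7 and 18.3 FPKM against 11.5 and 11.6 (-0.93, adjusted p = 0.0206), and Gabpa had 29.9 and 31.2 FPKM against 17.6 and 21.7 (-0.64, adjusted p = 0.0188), both under the fold limit. Ets1 stood at 20.7 and 21.7 FPKM against 19.7 and 21, groups that overlap. Elk1 shares a locus with its neighbour Uxt in some libraries and has no comparable value. The cascade itself held few calls. Of 36 genes from the Ras activators to the kinases below ERK, 32 were tested, 1 was called higher and 1 lower, with a median of 0.12. Rasa1, a GTPase activator of Ras, had 26.2 and 34.9 FPKM against 8.74 and 11.7 (-1.57 ± 0.20, adjusted p = 0.00536). Mras, a Ras relative that promotes Raf activation, had 7.69 and 8.55 FPKM against 18.2 and 20.5 (1.24 ± 0.13, adjusted p = 0.00231). Gab1, an adaptor below growth factor receptors, passed the adjusted p alone (0.89).

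Growth factor genes moved in both directions. Of 36 listed, 32 were tested, 6 were called higher and 3 lower, and the median was 0.26. The EGF receptor ligands amphiregulin and epiregulin fell. Areg had 5.21 and 2.83 FPKM against 0.282 and 0.467 (-3.08 ± 0.40, adjusted p = 0.00585), and Ereg had 8.26 and 5.62 FPKM against 0.793 and 0.878 (-2.89, adjusted p = 0.0112). Fgf7, which acts on epithelia, had 14.6 and 9.22 FPKM against 4.03 and 2.89 (-1.73, adjusted p = 0.0424). Several members of the TGF-beta family rose. Tgfb2 had 2.78 and 3.62 FPKM against 19.2 and 27.6 (2.82 ± 0.27, adjusted p = 0.00175), and Tgfb3 had 6.09 and 6.56 FPKM against 21.4 and 18.9 (1.65 ± 0.12, adjusted p = 0.000548). Bmp4, a bone morphogenetic protein, had 4.21 and 4.24 FPKM against 23.5 and 21.1 (2.37 ± 0.22, adjusted p = 0.00148). The effect on Bmp4 differed between the settings (interaction 2.86, adjusted p = 0.0102), and without 4OHT it stood at 83.4 and 74.4 FPKM and at 60.3 and 52.2 with the inhibitor. Bmp2, with 0.19 and 0.267 FPKM against 1.01 and 1.12, and the stress hormones Gdf15, with 0.648 and 0.895 FPKM against 5.67 and 6.45, and Fgf21, with 0.192 and 0.441 FPKM against 1.82 and 2.44, were called higher at low levels. Tgfb1 was not called (-0.71, adjusted p = 0.0711). Among 23 receptors tested of 28, the collagen receptor Ddr1 was called higher, with 42.7 and 29.6 FPKM against 104 and 73.4 (1.29). The receptor kinase Axl passed the adjusted p alone, with 173 and 173 FPKM against 99.5 and 103 (-0.77, adjusted p = 0.00997). Without 4OHT day 6 replicate 1, the adjusted p was 0.061 for Ereg, 0.172 for Fgf7, 0.128 for Bmp2 and 0.0738 for Fgf21. For Ddr1 it was 0.175 without 4OHT + PD0325901 replicate 1.

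Of the cell cycle genes, Ccnd1 was the one called. Of 46 S phase and mitosis genes tested of 49, 0 passed the adjusted p in limma and 8 had an unadjusted p under 0.05, with a median of -0.11. Among the 15 cyclin D, kinase and CDK inhibitor genes, Ccnd3 had 48.1 and 53.7 FPKM against 70.3 and 74.2 (0.50, adjusted p = 0.0414), and Cdkn2b, which encodes the inhibitor p15, had 37.6 and 30.8 FPKM against 64 and 50.3 (0.74, adjusted p = 0.0299), both under the fold limit. Genes for ribosome biogenesis had lower values throughout, though 0 reached the fold limit. Of 38 listed, 35 were tested, all 35 had a value below 0, 8 passed the adjusted p, as did 2.65% of all genes in this direction, and the median was -0.5. Both inhibitor libraries were below both others for 33 of them, and for 19.9% of all genes. Nucleolin (Ncl) had 283 and 308 FPKM against 149 and 192 (-0.80 ± 0.13, adjusted p = 0.0145). Dkc1, the pseudouridine synthase of the nucleolus, had 78.4 and 82.8 FPKM against 44.3 and 42.4 (-0.89), and the nucleolar chaperone Npm1 had 2390.3 and 2491 FPKM against 1423 and 1548 (-0.72). In untreated cells Ncl stood at 161 and 157 FPKM, close to the 4OHT + PD0325901 libraries. In undeleted cells the list had a median of 0.06, with 24 of 35 members above 0, and 0 members passed the interaction test.

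Metabolic genes held no call. For glycolysis and glucose uptake, 20 of 24 genes were tested and the median was -0.27, beside -0.99 without 4OHT. The lactate transporter Slc16a1 had 22.3 and 20.1 FPKM against 12.1 and 11.7 (-0.83, adjusted p = 0.00848), and the glucose transporter Slc2a1 had 18.4 and 20.7 FPKM against 11.1 and 12.9 (-0.70, adjusted p = 0.0278), both under the fold limit. For cholesterol synthesis and uptake, 21 of 25 genes were tested and the median was -0.2, beside -1.3 without 4OHT. Msmo1, an enzyme that removes methyl groups from sterols, passed the adjusted p alone (77.3 and 72.4 FPKM against 47 and 43.2 (-0.73, adjusted p = 0.0186)). Of all 11309 genes tested, 84 passed the adjusted p of the interaction, and 6 of them were members of this list. For Nsdhl, a sterol dehydrogenase among these, untreated cells had 61.4 and 60.5 FPKM and undeleted cells with the inhibitor 18.2 and 15.3, but 4OHT day 6 cells had 15.6 and 13.3 and those with the inhibitor 14.3 and 12.2. The 4OHT day 6 level was thus as low as that of undeleted cells with the inhibitor. Of 26 Atf4 targets tested of 28, Fgf21 was called, with a median of 0.25. Of 25 p53 targets, Gdf15 was called, with a median of 0.1. Of 15 apoptosis regulators tested of 17, the anti-apoptotic Bcl2 was lower, with 0.941 and 1.3 FPKM against 0.182 and 0.459 (-1.61). The BH3-only gene Bmf was higher, with 0.114 and 0.169 FPKM against 0.864 and 0.92 (2.05). The adjusted p of Bcl2 was 0.157 without 4OHT day 6 replicate 2, and that of Bmf was 0.13 without 4OHT day 6 replicate 1. Of 31 autophagy and lysosome genes tested of 34, 0 were called and 3 passed the adjusted p, with a median of 0.23.

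**Figure D3:**
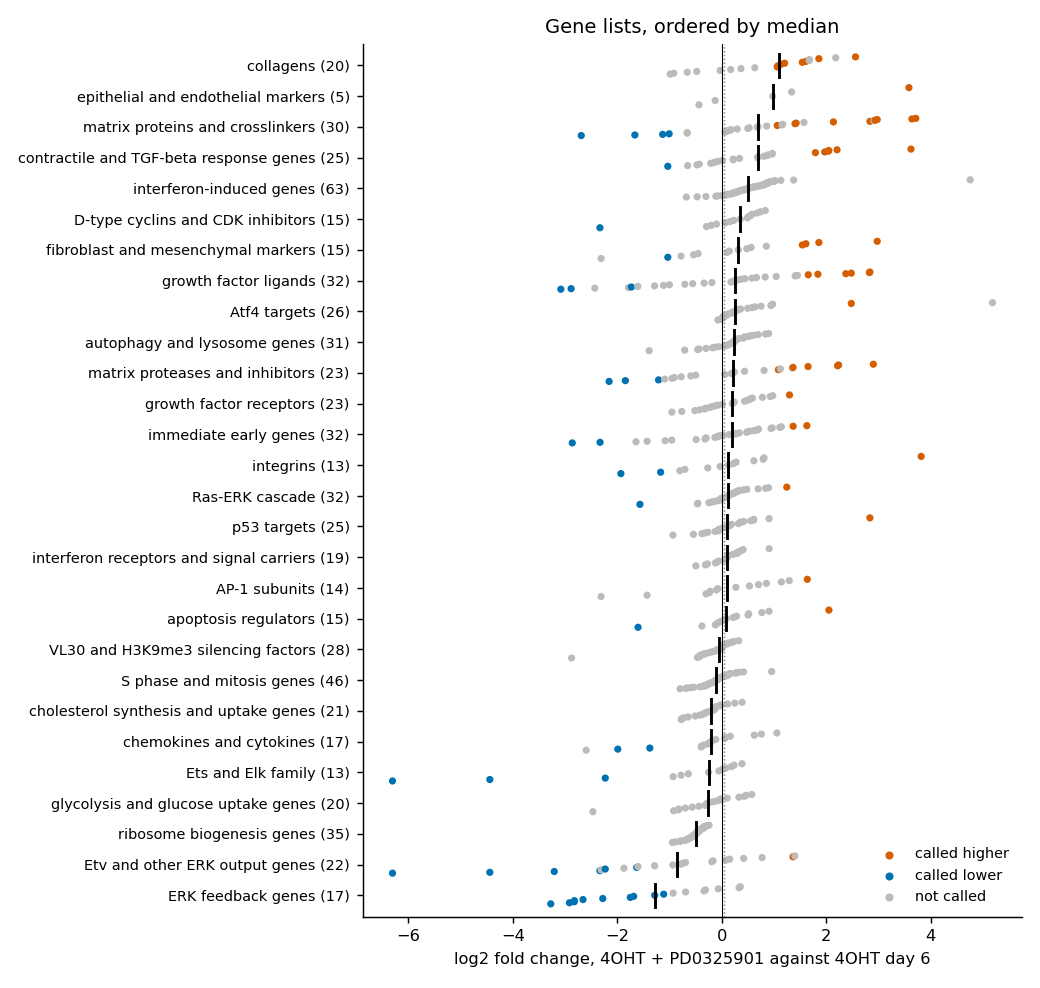
Log2 fold changes of 4OHT + PD0325901 against 4OHT day 6 for each tested gene of the 28 lists with at least 5 tested genes (number in brackets), ordered by the list's median (black bar); the dotted line marks the median of all genes (0.04). The feedback genes have the lowest median (-1.29) and the collagens the highest (1.09).

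The interferon-induced genes, strongly expressed in the 4OHT day 6 cells, stayed high. Of 88 listed, 63 were tested, and 56 of these were called higher in 4OHT day 6 than in untreated cells, where 4.87% of all genes were called higher and 6.21% lower. With the inhibitor 0 were called in limma, 4 had an unadjusted p under 0.05, and the median was 0.5. The median was -0.17 without 4OHT day 6 replicate 1, a library that held less of these transcripts than the other. The summed FPKM of the 63 genes was 4284 and 9561 in the 4OHT day 6 libraries, 8397 and 9541 with the inhibitor, and 664 to 721 in the 4 libraries without 4OHT. Irf7, the factor that amplifies the interferon response, had 99.5 and 277 FPKM against 266 and 321 (0.82 ± 0.41, adjusted p = 0.285). Usp18, which feeds back on the receptor, had 48.9 and 116 FPKM against 133 and 123 (0.77), and the ubiquitin-like Isg15 had 526 and 1013 FPKM against 1174 and 1069 (0.62). In each case 4OHT day 6 replicate 1 was the lowest of the 4 libraries. Without 4OHT day 6 replicate 2, Irf7, Isg15 and Oasl2 were among those called higher, with log2 fold changes of 1.55, 1.09 and 1.5. The antiviral gene Rsad2 had 17.8 and 74.5 FPKM against 37 and 76.9 (0.55), and -0.48 without 4OHT day 6 replicate 1. Irf9, a DNA-binding factor of the interferon response, had 92.6 and 97.3 FPKM with the inhibitor and 50.5 in 4OHT day 6 replicate 1, and shares a locus with Rnf31 in replicate 2. Of 19 interferon receptor and signalling genes tested of 21, 0 were called in limma and 2 had an unadjusted p under 0.05, with a median of 0.1, or -0.03 without the same library. Of 17 chemokines and cytokines tested of 26, Cx3cl1 was lower, with 4.39 and 3.8 FPKM against 0.869 and 1.04 (-1.99 ± 0.20, adjusted p = 0.00176). Il34, a ligand of the Csf1 receptor, was lower too, with 5.26 and 3.81 FPKM against 1.96 and 1.4 (-1.38), and its adjusted p was 0.0874 without 4OHT day 6 replicate 1.

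The VL30 transcripts fell. Their expression was taken from assembled loci without a gene name that lie at least 50% inside an element of the study's list. It is given as the element FPKM, FPKM times length summed over the loci and divided by the total length of the class's elements. An element without such a locus counts as 0, and since reads with several matches were kept at 1 position, elements of similar sequence cannot be separated strictly. U3 class I had 35.8 and 45.9 element FPKM in 4OHT day 6 and 2.16 and 1.68 with the inhibitor. The log2 fold change was -4.34 ± 0.21 (SE, adjusted p = 5.98e-05), and the mean was 21.3-fold lower. Untreated cells had 1.17 and 1.14, and undeleted cells with the inhibitor 0.0147 and 0.0341, also a fall (-3.34, adjusted p = 0.000147). The inhibitor libraries with 4OHT thus lay above the untreated ones. Of 71 class I elements, 53 held a locus in each 4OHT day 6 library, against 18 and 23 with the inhibitor. Of the 52 elements above 0 in both 4OHT day 6 libraries, 51 were lower in both inhibitor libraries and 28 were listed at 0 in both. These elements were picked by their level in 4OHT day 6, and an element without a locus counts as 0. A fall was thus favoured in advance, and elements are not repeats of a treatment. Among all genes tested, not picked in this way, 19.9% were lower in both. In the whole class, 0 elements were above both 4OHT day 6 libraries in both inhibitor libraries. The element at mm9 chr11:86625241-86629897 had 145 and 141 FPKM against 12.3 and 9.67, and 8.74 and 11 in untreated cells.

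U3 classes III and IV fell as well. Class III had 23 and 40.2 element FPKM against 0.864 and 0.874 (-4.98 ± 0.5, adjusted p = 0.00205), and class IV had 42.4 and 37.4 against 0.808 and 0.769 (-5.49 ± 0.27, adjusted p = 7.24e-05). All 46 class III and all 9 class IV elements above 0 in both 4OHT day 6 libraries were lower in both inhibitor libraries. They were picked in the same way as those of class I, which favours a fall. In class IV, 5 elements held 93% of the summed FPKM of the single elements in 4OHT day 6, a sum not weighted by length. Class II, the RLTR6-int type, had 4.7 and 3.17 element FPKM from 9 and 6 of 186 elements in 4OHT day 6, and is listed at 0 in the other libraries of the 4 groups. As an alternative chosen after seeing the data, fragment numbers were worked out from the interval bounds of the loci. The log2 fold changes were then -4.26 for class I, -4.17 for class III and -4.11 for class IV. The 4OHT day 6 levels were lower by this count, at 20.6 and 25.7 element FPKM for class I. Class III had 5.18 and 5.67, and class IV 5.08 and 6.84. Class II had 0.0146 and 0.0128, from 239 and 184 fragments, so its level depends on the method. Of 28 silencing factors tested of 30, 0 were called, 1 passed the adjusted p and the median was -0.06. Trim28, the corepressor that recruits Setdb1, had 125 and 123 FPKM against 119 and 108, and the zinc finger protein Zfp809 had 10.1 and 13.1 FPKM against 8.94 and 16.8. Dnmt1, the maintenance DNA methyltransferase, had 75.2 and 74.1 FPKM against 49.7 and 58.5 (-0.47, adjusted p = 0.0367). Of 21 germline genes, 1 passed the filter on low values, Tex15, and it was not called.

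**Figure D4:**
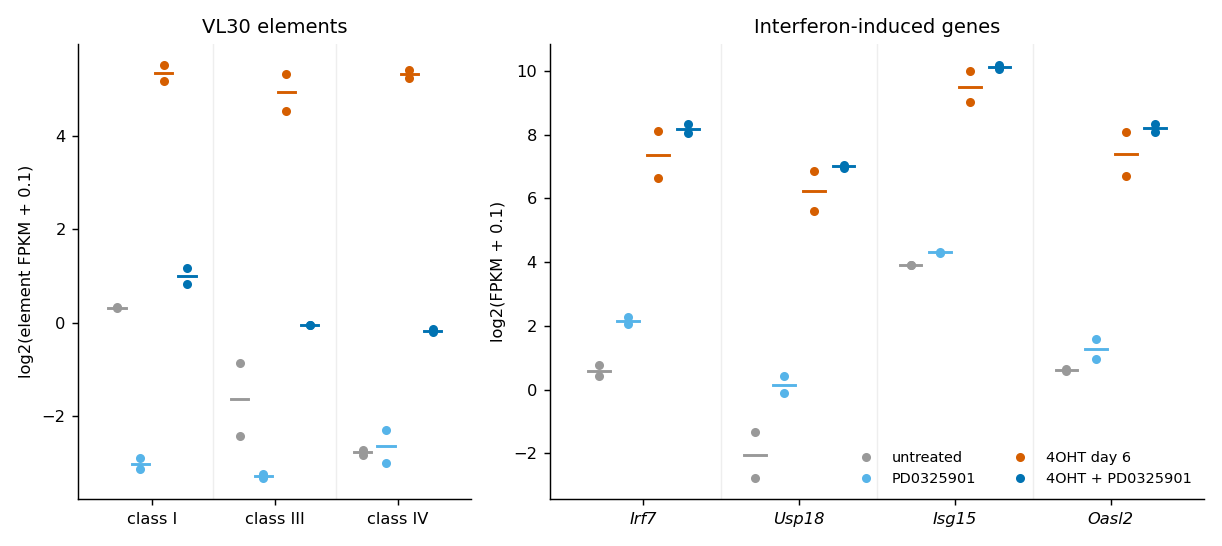
Left, log2(element FPKM + 0.1) of 3 VL30 U3 classes, and right, log2(FPKM + 0.1) of 4 interferon-induced genes, by library (points, 2 a group; bars, mean of the logs). With 4OHT the inhibitor libraries lie far below the 4OHT day 6 libraries for all 3 VL30 classes but not for the interferon-induced genes, where the lower 4OHT day 6 point is replicate 1.

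Some collagen genes rose. Of 22 listed, 20 were tested, 9 were called higher and 0 lower, and the median was 1.09, the highest of the lists with at least 5 tested genes. Col1a1, a chain of type I collagen, had 322 and 327 FPKM against 960.3 and 1016 (1.61 ± 0.11, adjusted p = 0.000476), and its partner chain Col1a2 had 259.8 and 285 FPKM against 821 and 761 (1.54 ± 0.12, adjusted p = 0.000606). Col12a1, a fibril-associated collagen, had 5.0 and 7.54 FPKM against 28.6 and 47 (2.56 ± 0.28, adjusted p = 0.00269). Col3a1, of type III collagen, had 19.4 and 26.1 FPKM against 71 and 93.8 (1.86), while untreated cells had 302 and 308. Col5a1 (1.06), Col5a2 (1.1), Col6a1 (1.07), Col6a2 (1.13) and Col4a5 (1.2) were also called. A few collagens had values below 0 that passed the adjusted p but not the fold limit. Col4a1, of basement membranes, had 135 and 102 FPKM against 73.9 and 74.2 (-0.66, adjusted p = 0.0474), Col18a1 had 19.6 and 23.9 FPKM against 9.1 and 12.9 (-0.99, adjusted p = 0.0217) and Col8a1 had 20.2 and 22.6 FPKM against 10.1 and 12.5 (-0.92, adjusted p = 0.0223). Col18a1 was called lower with median-ratio scaling (-1.04) and with quantile normalization (-1.01). Without 4OHT day 6 replicate 1, the adjusted p of Col3a1 was 0.129, and Col5a1, Col6a1 and Col6a2 had log2 fold changes of 0.98, 0.95 and 0.93, under the fold limit. Without 4OHT + PD0325901 replicate 1 the adjusted p was 0.0922 for Col5a2 and 0.107 for Col4a5.

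Other matrix genes were among the largest rises. Of 36 matrix proteins and crosslinking enzymes, 30 were tested, 9 were called higher and 4 lower, with a median of 0.68. Periostin (Postn) had 5.48 and 13.7 FPKM against 95 and 125 (3.64 ± 0.45, adjusted p = 0.00494). The collagen-binding proteoglycan decorin (Dcn) had 1.1 and 2.09 FPKM against 10.7 and 14.8 (2.97), and Lox, which crosslinks collagen, had 97.6 and 97.1 FPKM against 458 and 399 (2.13 ± 0.19, adjusted p = 0.00109). Fmod, Aspn and Mfap5 rose from below 1 FPKM, by 3.71, 2.83 and 2.93, and Fbln5, Loxl1 and Nid2 rose by 1.42, 1.4 and 1.06. Osteopontin fell, with 391 and 326 FPKM against 52 and 58.4 (-2.69 ± 0.17, adjusted p = 0.00027) for Spp1. Laminin beta 1 fell, with 63.7 and 55.2 FPKM against 15.7 and 22.1 (-1.67) for Lamb1, as did Bgn (-1.13) and the basement membrane protein Nid1 (-1.01). Without 4OHT day 6 replicate 1, the adjusted p was 0.129 for Aspn, 0.0969 for Nid1 and 0.0539 for Bgn, and without 4OHT day 6 replicate 2 it was 0.0665 for Fmod and 0.0644 for Mfap5.

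Of 28 matrix proteases and inhibitors, 23 were tested, 6 were called higher and 3 lower, with a median of 0.22. Timp3, a metalloprotease inhibitor held in the matrix, had 70.8 and 53.9 FPKM against 300.4 and 274 (2.21 ± 0.15, adjusted p = 0.000391), and the aggrecanase Adamts5 had 0.906 and 0.959 FPKM against 7.6 and 7.59 (2.90). Adamts1 (2.23), Adamts2 (1.65), Mmp14 (1.08) and Plau were the other genes called higher. Adam12 and Adam19 were lower (-1.85 and -1.21), and Mmp10 was at 0.279 and 0.427 FPKM and is listed at 0 with the inhibitor. Of 13 integrins tested of 18, the collagen receptor Itga11 rose, with 0.659 and 0.843 FPKM against 15.6 and 8.95 (3.81 ± 0.34, adjusted p = 0.0013), and Itgb7 (-1.93) and the laminin receptor Itga6 (-1.17) fell. The integrin median was 0.13, and -0.01 with median-ratio scaling. Without 4OHT + PD0325901 replicate 1, the adjusted p was 0.145 for Adamts1, 0.18 for Adamts2, 0.153 for Mmp14, 0.12 for Mmp10, 0.0982 for Adam12 and 0.0982 for Itga6.

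A minority of the smooth muscle genes rose. Of 26 contractile and TGF-beta response genes, 25 were tested, 6 were called higher and 1 lower. The median was 0.68, but 0.19 without 4OHT day 6 replicate 2 and 0.24 without 4OHT + PD0325901 replicate 1. Alpha smooth muscle actin (Acta2, mm9 chr19:34314826-34329863) had 110.4 and 127 FPKM against 548 and 436 (2.05 ± 0.23, adjusted p = 0.00363). Calponin (Cnn1), which binds actin, had 7.85 and 8.15 FPKM against 33.4 and 32.7 (2.03 ± 0.12, adjusted p = 0.000183), and the myosin light chain Myl9 had 49.1 and 51.7 FPKM against 195 and 199.9 (1.97 ± 0.17, adjusted p = 0.00106). Gamma smooth muscle actin (Actg2) had 0.192 and 0.294 FPKM against 4.67 and 3.54 (3.62 ± 0.27, adjusted p = 0.000606). For these 4 genes the lowest inhibitor library was well above the highest 4OHT day 6 library. Lmod1 and the Smad inhibitor Smad6 were called higher (1.79 and 2.2), with an adjusted p of 0.146 for Lmod1 without 4OHT day 6 replicate 1 and of 0.183 for Smad6 without 4OHT + PD0325901 replicate 1. The intermediate filament gene Vim had 1498 and 1419 FPKM against 713 and 709 (-1.04), and its adjusted p was 0.08 without 4OHT day 6 replicate 1. Of 22 fibroblast and mesenchymal markers, 15 were tested, 4 were called higher (Col1a1, Col1a2, Col3a1 and Dcn) and Vim lower. Krt14, a basal keratin, was the one called of 5 epithelial and endothelial genes tested of 15, with 0.0776 and 0.0642 FPKM against 2.18 and 1.73 (3.58), and its adjusted p was 0.0819 without 4OHT + PD0325901 replicate 1. Of 16 haematopoietic markers, 2 were tested and neither was called.

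**Figure D5:**
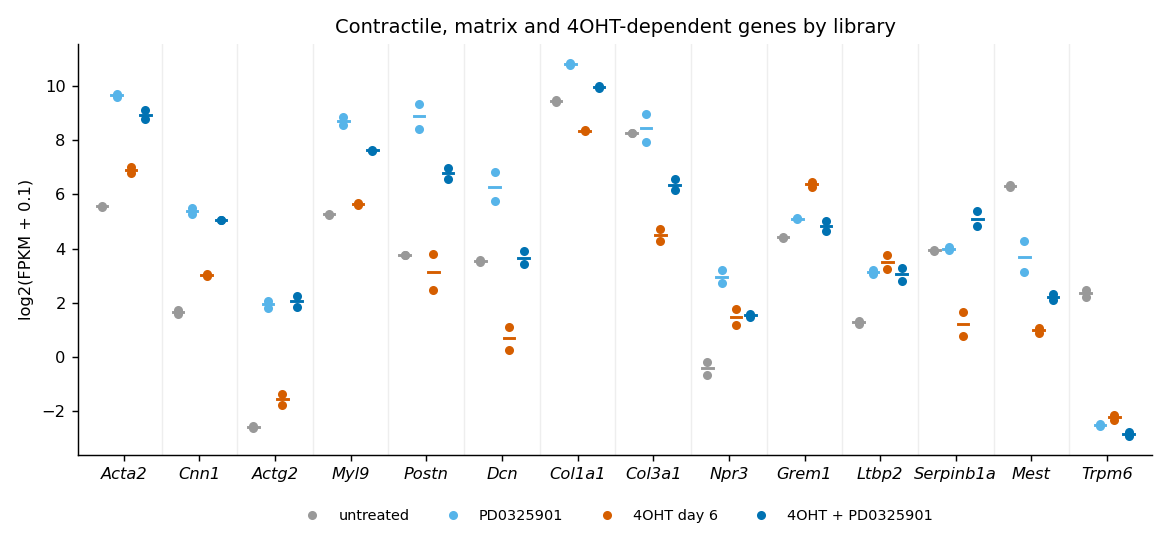
The plot gives log2(FPKM + 0.1) of 14 genes in each library of 4 groups (points, 2 a group; bars, mean of the logs). Acta2, Cnn1, Actg2, Myl9, Postn, Dcn and Col1a1 are higher with the inhibitor with and without 4OHT, while Npr3, Grem1, Ltbp2, Serpinb1a, Mest and Trpm6 respond differently in the 2 settings.

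Several genes outside the lists had changes of the same size. Tmem171, a membrane protein, had 8.76 and 6.17 FPKM against 0.225 and 0.166 (-4.67 ± 0.30, adjusted p = 0.000315), and untreated cells had 0.149 and 0.0822. The prolactin relative Prl2c5 had 14.1 and 11.9 FPKM against 1.0 and 0.571 (-3.93), and the urea transporter Slc14a1 had 3.44 and 4.59 FPKM against 0.0997 and 0.208 (-4.04). Prkg2, a kinase that cyclic GMP activates, had 89 and 79.9 FPKM against 11.6 and 9.53 (-2.99 ± 0.19, adjusted p = 0.00027). Gcnt4 (-3.04), Tmem200a (-2.98) and Anks1b (-2.89) complete the 15 lowest, with Etv4, Etv5, Spry4, Hmga2, Areg, Dusp6, Ereg and Egr3. At the other end, Ccser1 had 0.158 and 0.136 FPKM against 6.24 and 2.9 (4.15 ± 0.55, adjusted p = 0.00638), and Wisp2, a matricellular protein, had 0.588 and 2.13 FPKM against 17.2 and 25.9 (4.10). Tenascin N (Tnn, mm9 chr1:162015163-162083706) had 0.0127 and 0.102 FPKM against 2.42 and 2.49 (4.08 ± 0.33, adjusted p = 0.000971). Dhrs3, which reduces retinal, had 0.848 and 0.433 FPKM against 14.4 and 9.05 (4.02), and the adhesion protein Flrt3 had 1.63 and 2.42 FPKM against 24.3 and 35.6 (3.82 ± 0.30, adjusted p = 0.000788). The other genes of the 15 highest were Serpinb1a, Itga11, Fmod, Upk3b, Postn, Actg2, Krt14, Ptprq, Avpr1a and Sbspon. Without 4OHT + PD0325901 replicate 1, the adjusted p was 0.155 for Anks1b, 0.0855 for Dhrs3, 0.0597 for Upk3b, 0.0771 for Avpr1a and 0.058 for Sbspon.

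The effect of the inhibitor differed between deleted and undeleted cells for a smaller set of genes. In the interaction, which is the effect with 4OHT minus the effect without, 58 genes were called higher (0.513%) and 23 lower (0.203%), and 27 of the 427 genes called in deleted cells passed its adjusted p. These counts rest on single libraries. Without untreated replicate 1 or 2, 12 or 15 genes were called higher, without 4OHT + PD0325901 replicate 1 there were 36, and without PD0325901 replicate 2 there were 113 higher and 57 lower. Serpinb1a, a protease inhibitor (mm9 chr13:32933961-32943054), had 3.03 and 1.62 FPKM against 41.9 and 28 (3.89 ± 0.29, adjusted p = 0.000594). Without 4OHT it stood at 15.4 and 15.1 FPKM and at 15.3 and 16.4 with the inhibitor, and the interaction was 3.83 (adjusted p = 0.00882). Grem1, which binds BMPs, fell with 4OHT, with 77 and 87.9 FPKM against 24.7 and 32.1 (-1.54), but went from 20.8 and 21.6 to 34.6 and 34 without it. Npr3, the clearance receptor for natriuretic peptides, had 2.15 and 3.32 FPKM against 2.92 and 2.7 with 4OHT, groups that overlap, and 0.536 and 0.788 against 9.07 and 6.56 without it. Acta2 rose in both settings, by 2.05 with and 4.09 without 4OHT, where the untreated level was 46.9 and 46.5 FPKM and that with the inhibitor 819 and 773. Mest, an imprinted gene, had 1.77 and 1.99 FPKM against 4.86 and 4.25 (1.23, adjusted p = 0.0622) with 4OHT, and 80.1 and 76.4 against 8.63 and 19.2 without it.

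Some genes were listed at 0 in both libraries of a group and at 5 FPKM or more in both of the other. Loci marked as failed were treated as missing, yet a 0 may still not be a measured absence, so levels alone are given. The 10 genes at 0 in 4OHT day 6 included Cog4, a Golgi tethering subunit (28 and 25.9 FPKM with the inhibitor), Gps2 (35.2 and 40.1), Kdelr3 (57.1 and 52) and Ppil3 (37.9 and 36.2). The others were 4931406C07Rik, Esrra, Nit1, Rabepk, Smim19 and Tfb1m. The 4 at 0 with the inhibitor included 3010026O09Rik, Prr3 and Surf2, of which Surf2 had 54 and 52.1 FPKM in 4OHT day 6.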

How the data were processed

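RNA-seq libraries of Setdb1 cKO iMEFs (TruSeq RNA kit) were aligned by the authors with TopHat2 (2.0.12), 1 position per read, to mm9, and the deposited FPKM per locus were estimated by the authors with Cufflinks. Each library has its own deposited table, with no read counts. Locus FPKM were summed per gene name, loci that join several genes were left out, and failed loci were treated as missing. Depth is unknown beyond an estimate from the interval bounds of single-exon genes, and each test uses 2 libraries a group, for which an exact permutation test cannot go below p = 0.333. Genes with at least 1 FPKM in at least 2 of the 10 inhibitor-experiment libraries were tested with limma (3.58.1, R 4.3.3; trend, two-sided) on log2(FPKM + 0.1), with 5 groups, 5 residual and 2.63 prior degrees of freedom, and Benjamini-Hochberg adjustment over all genes. Tables were handled with pandas (2.3.3) in Python (3.11.15).

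Named genes are members of 30 lists (841 memberships, 789 different genes, 633 tested), the 15 highest and 15 lowest fold changes among called, non-overlapping genes above 0 in all 4 libraries, the 5 highest and 5 lowest interactions among genes above 0 in all 8 libraries, and genes the study discusses. The lists were described by counts and medians, with no test. The members and lists were chosen with earlier results of these data known. In data simulated for this comparison, 139 of 200 changed genes among 11309 were called, as were 6 others. The simulated noise was independent between libraries, unlike the deviations reported below, and some planted changes lay exactly at the fold limit. These counts are therefore not error rates of the real data. Alternatives were another pseudocount, filter, scaling, set of libraries, replicate block, fold limit and locus rule. Values of a few single genes are not reported here.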

Additional observations from a re-analysis of the deposited data

Results flagged for a closer look

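The results below are those in which the effect of PD0325901 with 4OHT differed from its effect without 4OHT by the interaction test. Over all genes, 58 were called higher and 23 lower in this test. Each gene is given as the interaction on the log2 scale with limma's adjusted p, and each is 1 of the 5 highest or 5 lowest.

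In 5 genes the interaction was negative. It was -3.31 for Npr3 (adjusted p = 0.0235), -2.82 for Crispld2 (0.0418), -2.3 for Ltbp2 (0.0403), -2.24 for Grem1 (0.0241) and -2.04 for Acta2 (0.047). For the first 3 the inhibitor raised the level in undeleted cells, by 3.38, 3.64 and 1.85, and the change with 4OHT was not called. Crispld2, a secreted protein, had 0.604 and 0.665 FPKM in untreated cells, 7.54 and 10.9 with the inhibitor, and 2.64 and 3.62 FPKM against 6.84 and 4.49 with 4OHT. Ltbp2, a matrix protein related to those that hold TGF-beta, had 2.22 and 2.44, 8.24 and 9.08, and 13.5 and 9.39 FPKM against 9.65 and 6.95.

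In 5 genes it was positive, at 3.02 for Prph (adjusted p = 0.0185), 3.27 for Elmo1 (0.0487), 3.82 for Mest (0.0133), 3.83 for Serpinb1a (0.00882) and 4.26 for Trpm6 (0.00862). Prph, Elmo1, Mest and Trpm6 fell with the inhibitor in undeleted cells and were not called with 4OHT, where they began low. Trpm6, a magnesium channel, had 5.51 and 4.5 FPKM in untreated cells, 0.0805 and 0.0703 with the inhibitor, and 0.101 and 0.129 FPKM against 0.0337 and 0.0497 with 4OHT. The levels with 4OHT lay near or below the pseudocount of 0.1, so that a fall there could hardly have been seen on this scale. Without the TSA libraries, the adjusted p of this interaction was 0.0586. Prph, an intermediate filament protein, had 16.9 and 18.8, 3.95 and 3.76, and 3.95 and 3.1 FPKM against 7.16 and 5.6.

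Leaving out untreated replicate 1 raised the adjusted p to 0.088 for Npr3, 0.167 for Crispld2, 0.17 for Ltbp2, 0.104 for Grem1, 0.18 for Acta2, 0.186 for Elmo1 and 0.0631 for Mest. For Prph it was 0.0916 without untreated replicate 2.

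The interaction was -5.61 for VL30 U3 class IV (adjusted p = 0.000582). The element FPKM without 4OHT was 0.053 and 0.0416 in untreated cells and 0.0254 and 0.104 with the inhibitor, near the pseudocount of 0.1, so that a fall there could not have been seen on this scale. For class I the interaction was -1.0 (adjusted p = 0.169), and for class III it was -3.34 (adjusted p = 0.0968). Class I had a level to fall from without 4OHT, but its inhibitor libraries there, at 0.0147 and 0.0341, lay below the pseudocount. Its fall without 4OHT is therefore understated, and the sign of its interaction cannot be read. The inhibitor libraries without 4OHT lay below the pseudocount for class III too, at 0.00693 and 0. Class II also passed this test, but it is listed at 0 in all libraries of the other 3 groups, so the size of its interaction is set by the pseudocount and is not given.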

How the results depend on the processing

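The main counts (270 higher, 157 lower) were 63 and 39 with only the 4 libraries compared, a fit with fewer samples, and 490 and 300 with no fold limit. With 1 library left out they ranged from 169 to 282 and from 104 to 173. They stayed within 1.5 times otherwise, at 189 and 122 with a pseudocount of 1, and at 235 and 180 with median-ratio scaling, where 56.6% of calls were higher, against 63.2% as reported. The interaction counts (58 and 23) ranged from 12 to 113 and from 16 to 57 with 1 library left out, and median-ratio scaling gave 32 higher; the cause was not tested. VL30 U3 class I kept its direction and call in every alternative run, from -4.16 to -4.52 with 1 library left out, and was -3.83 with a pseudocount of 1. Of 122 named genes, 46 kept their side of the threshold and direction in every alternative, and of 93 called, 41 lost the call when 1 library was left out. Of these 93, 63 lost the call in at least 1 alternative of another kind. Rsad2, never called, reversed with 1 library left out, with values from -0.48 (without 4OHT day 6 replicate 1) to 1.58. With the replicate number as a block, 300 genes were higher and 173 lower, and 53 and 19 in the interaction. Among the named genes, the adjusted p under the block was above 0.05 for Adamts2 (0.0508) and Mmp14 (0.0525), and in the interaction for Crispld2 (0.0502), Ltbp2 (0.0522), Acta2 (0.0507) and Elmo1 (0.0557), and no other call changed. The labels do not say that a number pairs libraries, there are 2 pairs, and same-numbered 4OHT day 6 and 4OHT + PD0325901 libraries had correlated deviations (0.259), as did those of PD0325901 with 4OHT day 6 (0.228) and with 4OHT + PD0325901 (0.206), while pairs with untreated libraries lay between -0.026 and 0.037. Of the list medians, those of the integrins, AP-1 genes, receptors, interferon and immediate early lists and the sparse marker lists changed sign in at least 1 alternative.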
